A study of Drosophila melanogaster with 2 samples.

Results

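The regions described here are 673 of the 4439 E2f1 binding regions (15.2%, exact 95% interval 14.1 to 16.3%) that the authors found reproducible over both replicates. They are the regions whose summit, the position of highest signal, lay inside an intron, in no annotated exon, and more than 500 and up to 2000 bp from the nearest transcription start site (TSS) of any gene. Among the 4439, position alone chose them, so where they lie is a description. Their height, recurrence and sequence were not used in that choice. All 4439 had already passed the authors' threshold on reproducibility over both replicates, which bears on their heights and recurrence. Chromatin came from whole Drosophila melanogaster embryos, collected at ages of 0 to 24 h, of the strain E2f1-GFP, whose transgene makes E2f1 fused to eGFP, and the DNA pulled down by an anti-GFP antibody was sequenced (ChIP-seq) for 2 biological replicates of 1 group. There was no second condition, and no control library was used here. What was mapped is the tagged protein from a transgene, averaged over all cell types and ages of the embryo. Library depth is unknown, because no read counts are given. Every interval and p-value treats regions as its units; regions are not independent, nor are they replicates of the embryos, and the intervals reflect counting error alone.

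E2f1 is the activating E2F of the fly. It pairs with Dp to bind DNA at short GC-rich words and drives genes needed for entry into S phase, and the retinoblastoma protein Rbf holds it in check. Most known E2F sites lie just upstream of a start site. Introns close to a start site are of interest beside them because in flies the first intron often holds enhancers and alternative start sites.

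Examples of the DNA under the summits are shown as windows reaching 50 bp to each side, on the plus strand of the dm6 build and cut from the RefSeq sequence of that assembly. The first 4 are the highest regions that could be printed, with the summit base in capitals. They lay at chr2L:6612656-6612756 in CG11050, chrX:4910315-4910415 in CG32772, chr3L:14759460-14759560 in Trl and chrX:5918867-5918967 in CG3726.
CG11050: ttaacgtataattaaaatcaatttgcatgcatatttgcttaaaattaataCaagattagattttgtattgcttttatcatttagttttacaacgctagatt
CG32772: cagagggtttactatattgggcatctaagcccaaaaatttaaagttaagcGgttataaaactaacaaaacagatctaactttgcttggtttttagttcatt
Trl: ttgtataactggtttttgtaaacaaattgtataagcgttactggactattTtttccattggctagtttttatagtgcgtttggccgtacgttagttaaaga
CG3726: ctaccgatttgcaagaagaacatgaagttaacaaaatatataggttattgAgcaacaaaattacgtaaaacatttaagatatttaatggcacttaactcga
All 4 windows were AT-rich, with a GC content of 21.8% in CG11050, 31.7% in CG32772, 32.7% in Trl and 28.7% in CG3726. None of them held 1 of the 4 words of the E2F consensus on either strand. These words are TTCCCGC as the first, TTCGCGC as the second, TTGCCGC as the third and TTGGCGC as the fourth.

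The next 6 windows are from the 8 highest of the 15 regions that did hold such a word within 50 bp of the summit (those in E(Pc) and px are not printed), with the word in capitals as it reads on the plus strand. They lay at chr2L:867454-867554 in aru, chr3R:27263495-27263595 in woc, chr3R:16969731-16969831 in Abd-B, chr3R:31794678-31794778 in Acf, chr3R:26867469-26867569 in His2Av and chr3R:19892176-19892276 in CG4733.
aru: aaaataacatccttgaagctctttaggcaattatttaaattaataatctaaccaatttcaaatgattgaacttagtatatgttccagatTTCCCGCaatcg
woc: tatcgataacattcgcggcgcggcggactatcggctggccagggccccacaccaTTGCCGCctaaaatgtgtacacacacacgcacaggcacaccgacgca
Abd-B: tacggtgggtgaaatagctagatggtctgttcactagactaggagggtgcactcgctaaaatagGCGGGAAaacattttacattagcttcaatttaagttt
Acf: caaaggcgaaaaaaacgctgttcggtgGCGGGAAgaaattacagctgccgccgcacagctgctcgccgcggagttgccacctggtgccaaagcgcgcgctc
His2Av: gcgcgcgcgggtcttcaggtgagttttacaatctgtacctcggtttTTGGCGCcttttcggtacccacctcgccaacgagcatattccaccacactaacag
CG4733: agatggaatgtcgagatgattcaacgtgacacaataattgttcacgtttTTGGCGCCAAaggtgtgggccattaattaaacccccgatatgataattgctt
The words in Abd-B and Acf were TTCCCGC read on the minus strand. In CG4733 the word TTGGCGC lay on both strands and overlapped itself, so that the 10 capitals read the same on either strand. The GC content was 60.4% in woc, 62.4% in Acf and 54.5% in His2Av, against 28.7% in aru.

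Intronic summits were denser the closer the intron lay to a start site. The introns in this range of distance covered 11.4 Mb, or 8.54% of the 6 chromosome arms, and held 58.9 summits per Mb, against 113 per Mb within 500 bp of a TSS (2043 promoter summits) and 23.4 per Mb in introns over 2000 bp away (970 far intron summits). From near to far in steps of 250 bp the density was 78.7, 64.2, 58.8, 50.7, 43.3 and 49.2 summits per Mb. Beyond the outer edge it was between 32.0 and 35.5 per Mb out to 5000 bp. The nearest step also had the highest median height, 134, against 107 to 118 in the other steps, and the largest share of regions found again in both replicates, 60.3%, against 48.7 to 55.5%. At the edges of the rule, regions in CG33725 (height 140) and CG42671 (502 bp, height 442) lay just inside and those nearest capu (500 bp, height 78.0) and cu (499 bp, height 113) just outside. At the far edge, shot (1983 bp, height 102) and Dys (1986 bp, height 117) lay inside and CG43783 (2002 bp, height 116) and CG3764 (2003 bp, height 200.1) outside.

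**Figure D1:**
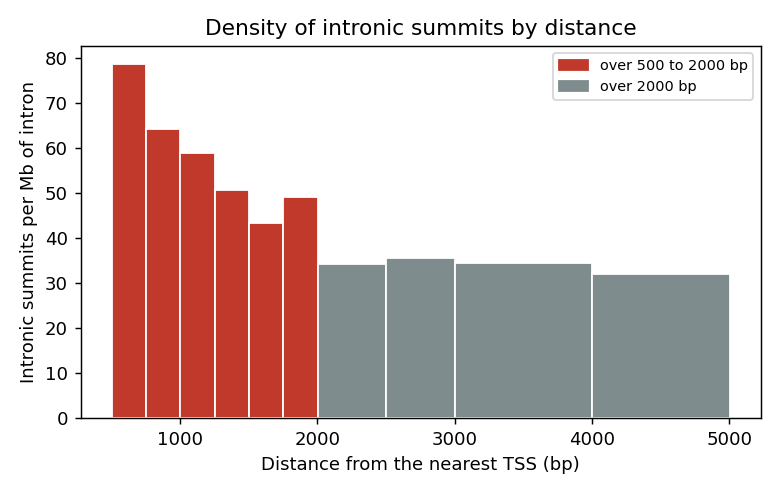
Intronic summits per Mb of intron (y axis) by distance from the nearest TSS in bp (x axis), in introns over 500 to 2000 bp from a TSS (red) and farther out (grey). The density was 78.7 per Mb in the nearest step and 32.0 to 35.5 per Mb from 2000 out to 5000 bp.

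Most of the summits sat in the first intron of a coding gene. The host, the gene whose intron held the summit, was protein coding for 661 of 673, and 550 summits (81.7%) lay in an intron that is the first of at least 1 transcript of the host. A coding host was taken before others and the lowest intron rank over transcripts, which can raise both counts. The shares of all intron in this range of distance that are first intron or coding were not measured, so neither count shows a preference. The nearest TSS belonged to the host for 562 summits (83.5%), of which 408 lay downstream of that TSS and 154 upstream of it. For 111 it belonged to another gene, which was non-coding for 59 of them. The median intron measured 4871 bp, and 195 summits (29.0%) lay in introns over 10000 bp. The X held 155 summits (70.4 per Mb) and arm 2L 101 (48.8 per Mb), the highest and lowest densities of the 5 large arms. Chromosome 4 held none in 0.129 Mb, which allows a density of up to 23.2 per Mb at a limit of 3 counts.

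Peak heights, the authors' scores, placed the 673 regions between promoter and far intron summits. The median height was 117 (quartiles 82.4 and 191), against 127 for promoter summits and 101 for far intron summits. In the ranked list of each replicate, which has its own scale, the median was 66.1 in replicate 1 and 54.0 in replicate 2. On the log2 scale the mean was 6.97 ± 1.17 (SD, n = 673), against 7.11 ± 1.23 for promoter summits (n = 2043), a difference of -0.14 (two-sided permutation test, adjusted p = 0.00898), and against 6.73 ± 1.01 for far intron summits (n = 970), a difference of 0.24 (adjusted p = 4e-05). The difference from promoter summits was -0.018 in the set of replicate 1 alone (adjusted p = 0.768), -0.048 in the larger set over both replicates (adjusted p = 0.397) and -0.051 with only the highest region of each gene (adjusted p = 0.338, all by the permutation test), so that call did not hold in these 3 settings. The difference from far intron summits was 0.11 with only the highest region of each gene (permutation test, adjusted p = 0.104). Of the 100 highest regions of the whole set, 15 were among the 673, 73 were promoter summits and 4 far intron summits. These classes made up 15.2%, 46.0% and 21.9% of all 4439 regions, so the 673 were near their share.

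The highest of all 4439 regions was 1 of the 673. It lay in the second intron of CG11050, 140 bp long, 1019 bp downstream of the TSS, and had a height of 2185, with 1208 in replicate 1 and 959 in replicate 2. Adf1, a transcription factor first found at the Adh gene, had a first-intron region of height 1501, with 762 in replicate 1 and 773 in replicate 2. CG32772 reached 1239, with 635 in replicate 1 and 603 in replicate 2. These 3 regions were high in both replicates and in none of them was the height of 1 replicate 2 times that of the other.

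HmgZ, which encodes an HMG-box chromatin protein, had a region of height 1202 (replicate 1, 566 and replicate 2, 631) that lay upstream of its nearest TSS, inside the intron of a longer transcript. Trl, which encodes the GAGA factor, had a height of 1114 (607 and 505) in an intron 1539 bp from its TSS. CG3726 followed with 886 (464 and 422). KCNQ, a voltage-gated potassium channel, held a region of height 881 (418 and 444) whose nearest TSS was that of another gene, mlt. Others of the 12 highest lay in NFAT (853), the fly's NFAT transcription factor, in CG9663 (851), in norpA (825), the phospholipase C of the light response, and in chif (776), the fly relative of the Dbf4 activator of replication origins. All 12 were in the thresholded sets of both replicates. None held an E2F word within 50 bp, which only 15 of the 673 held. CG9663 held a second summit 201 bp away (height 589), and the same region of replicate 2, of height 211, was matched to both.

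Recurrence followed height. Of the 673 regions, 456 (67.8%) overlapped a region of the thresholded set of replicate 1, 461 (68.5%) one of replicate 2 and 365 (54.2%, interval 50.4 to 58.0%) both, while 121 overlapped neither. The share in both compares with 60.3% of promoter summits (difference -6.07 percentage points, two-sided Fisher's exact test, adjusted p = 0.0177) and 50.2% of far intron summits (difference 4.03, adjusted p = 0.130). In the set of replicate 1 the 673 stood at 67.8%, against 74.0% of promoter summits (adjusted p = 0.0122) and 62.2% of far intron summits (adjusted p = 0.0423), by the same exact test. In the set of replicate 2 the shares were 68.5%, against 70.1% of promoter summits (adjusted p = 0.439) and 64.4% of far intron summits (adjusted p = 0.130), by the same exact test. Above the median height of all regions the 673 stood at 89.9% in both sets, against 92.7% of promoter summits and 94.1% of far intron summits (exact test, adjusted p = 0.187 for each), so no recurrence call held there. The difference from promoter summits in both sets also missed the threshold in the larger set (-2.62 points, adjusted p = 0.269), at a global IDR (the authors' rate of irreproducible regions) of 0.001 (-4.25, adjusted p = 0.124) and with only the highest region of each gene (-3.52, adjusted p = 0.434), by the exact test. With the regions of replicate 1 alone, looked up in the set of replicate 2, it was 1.45 points (exact test, adjusted p = 0.714). The replicate 1 difference from promoter summits was -1.99 points at an IDR of 0.001 and -3.77 with 1 region per gene (exact test, adjusted p = 0.276 and 0.434). That from far intron summits ended at a promoter distance of 1000 bp (0.580 points), with 1 region per gene (0.216), at a reciprocal overlap of 50% (3.01) and at an IDR of 0.001 (-0.727), with an exact test's adjusted p of 0.902, 0.946, 0.446 and 0.692. From the highest to the lowest quintile of all regions, the share of the 673 in both sets was 100%, 92.0%, 51.4%, 13.4% and 3.82%. Height and the replicate sets come from the same libraries, so this fall only describes the regions. What recurrence in a replicate's own set measures within a library is not known, since the inputs to its list are unnamed.

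**Figure D2:**
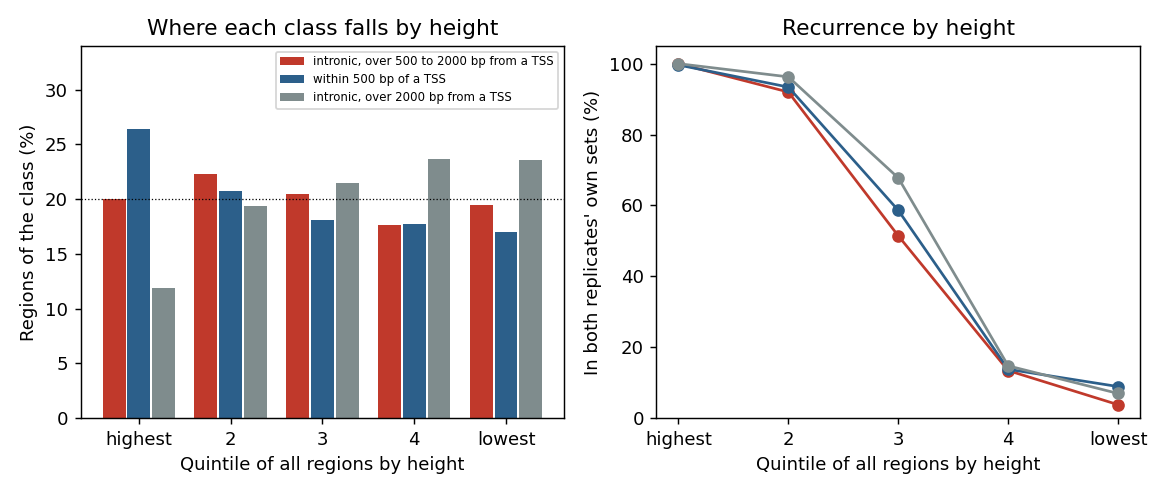
Left, the share of each class (y axis, percent) in each quintile of all 4439 regions by height, with a dotted line at 20%; right, the share found in the thresholded sets of both replicates (y axis, percent). The intronic summits over 500 to 2000 bp from a TSS (red) spread almost evenly over the quintiles, with 20.1% in the highest, against 26.4% of promoter summits (blue) and 11.9% of far intron summits (grey). In all 3 classes recurrence ran from about 100% in the highest quintile to under 10% in the lowest. Height and the replicate sets come from the same libraries, so this fall only describes the regions.

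Heights in both replicates ranked the 673 regions alike. Over the 661 with an overlapping region in both ranked lists, Pearson's r of the log2 heights was 0.86 and Spearman's rank correlation 0.76; these points share libraries and were chosen for reproducibility, so the values only describe them. The median ratio of replicate 1 to replicate 2 was 0.30 on the log2 scale, and the summits of both replicates lay a median of 25 bp apart. All 23 regions with a height under 35 had their summit within 250 bp of that of a higher region, and for such regions the matched replicate height can be that of the neighbour. There were 26 such regions of any height, among them 1 in psq.

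**Figure D3:**
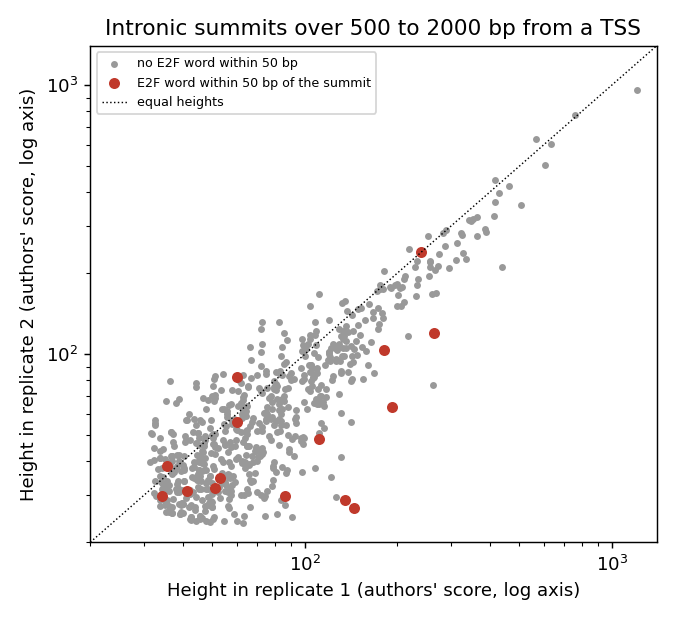
Height in replicate 1 (x axis) against replicate 2 (y axis), both the authors' scores on log axes, for the 661 intronic summits over 500 to 2000 bp from a TSS matched in both lists. Regions with an E2F word within 50 bp of the summit (red, 15) include aru on the line of equal heights and E(Pc) and His2Av far below it, with 145 and 135 in replicate 1 and 26.8 and 28.7 in replicate 2.

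Summit DNA was AT-rich. The mean GC content within 50 bp of the summit was 32.9 ± 9.14% (SD, n = 673), against 34.8 ± 11.1% at promoter summits (difference -1.86 percentage points, permutation test, adjusted p = 0.00024) and 32.3 ± 8.80% at far intron summits (difference 0.662, adjusted p = 0.140). Windows tiled over the same introns averaged 39.2%. GC content was 32.3% in the bin just before the summit and 43.9% in the bin centred 137.5 bp before it, so the AT-rich stretch was narrow. The difference from promoter summits was -0.240 points in the set of replicate 2 alone (adjusted p = 0.894), -1.01 at an IDR of 0.001 (adjusted p = 0.135) and -0.594 above the median height (adjusted p = 0.609), by the permutation test. A soft-masked base, the mark of a repeat or low-complexity stretch in the assembly, was present in 71.6% of the windows, against 69.8% at promoter summits (adjusted p = 0.382) and 74.8% at far intron summits (adjusted p = 0.310), by Fisher's exact test. The regions averaged 305 ± 76.4 bp in width, against 302 ± 74.8 bp for promoter regions (adjusted p = 0.283) and 314 ± 69.8 bp for far intron regions (difference -8.57 bp, permutation test, adjusted p = 0.0376), and 510 of the 673 had the same width of 344 bp. The width call did not hold in the set of replicate 1 alone (-5.62 bp, adjusted p = 0.259), in that of replicate 2 alone (-4.54, adjusted p = 0.198) or at an IDR of 0.001 (-7.33, adjusted p = 0.416), and with only the highest region of each gene the difference was 4.65 bp (adjusted p = 0.580, permutation tests).

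**Figure D4:**
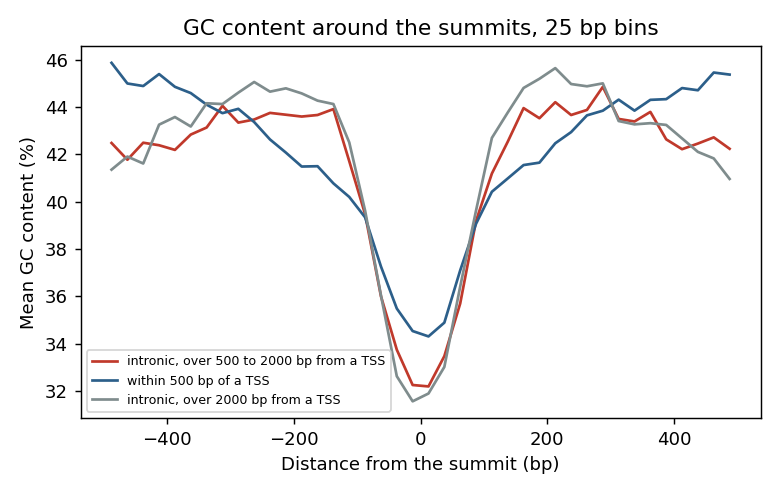
Mean GC content (y axis, percent) in bins of 25 bp by distance from the summit (x axis, bp) for intronic summits over 500 to 2000 bp from a TSS (red), promoter summits (blue) and far intron summits (grey). All 3 curves have their lowest values at the summit, 32.3% beside it in the red curve, and rise on both sides within about 137.5 bp.

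E2F words were rare at these summits. A word lay within 50 bp of the summit in 15 of 673 regions (2.23%, interval 1.25 to 3.65%), against 118 of 2043 promoter summits (5.78%; difference -3.55 percentage points, Fisher's exact test, two-sided, adjusted p = 0.0014) and 24 of 970 far intron summits (2.47%; difference -0.245, adjusted p = 1). Windows tiled over the same introns held a word in 3.79% of cases, and those tiled over promoters in 4.78%. The call against promoter summits did not hold in the set of replicate 1 alone (4.93% against 7.89%, adjusted p = 0.153), in that of replicate 2 alone (2.79% against 4.24%, adjusted p = 0.874), with promoters taken out to 1000 bp (2.52% against 5.32%, adjusted p = 0.153), with windows of 25 bp each side (1.34% against 2.64%, adjusted p = 0.437) or above the median height (2.25% against 5.92%, adjusted p = 0.0616), all by the exact test. Counted by position, the 673 regions held 0.265 words per kb within 50 bp of the summit, 0.520 at 51 to 100 bp and 0.632 to 0.687 at 101 to 500 bp. Far intron summits held fewer near the summit too, with 0.296 words per kb within 50 bp, 0.340 at 51 to 100 bp and 0.629 to 0.691 at 101 to 500 bp. Promoter summits held 0.654 words per kb within 50 bp and 0.619 to 0.734 farther out.

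GC content moved with the words. Windows with at least 40% GC were 119 of the 673 and held a word in 10 cases (8.40%), against 88 of 628 such promoter windows and 9.20% of such far intron windows, while 5.88% of tiled windows of that GC content held one. Windows from 35 to under 40% GC were 102 and held a word in 2 (1.96%), against 19 of 231 such promoter windows (8.23%), 4 of 128 such far intron windows and 3.31% of tiled windows. Windows from 30 to under 35% GC were 157 and held none, against 6 of 346 promoter windows (1.73%), 1 of 216 far intron windows and 1.78% of tiled windows. Windows under 30% GC were 295 and held a word in 3 (1.02%), against 5 of 838 promoter windows (0.597%), 4 of 463 far intron windows (0.864%) and 0.720% of tiled windows. The part of GC content in the difference from promoter summits was not tested.

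The regions with a word were not the highest. The 8 highest of the 15 lay in aru (height 483), an Eps8-type adaptor gene, woc (381), which encodes a zinc finger protein, the Hox gene Abd-B (301), Acf (258), a subunit of the ACF chromatin assembly complex, E(Pc) (171), a subunit of the Tip60 acetyltransferase complex, His2Av (169), the fly's H2A variant, px (158) and CG4733 (151). In aru the heights were 240 in replicate 1 and 241 in replicate 2, and in CG4733 they were 60.3 and 82.5. In woc they were 264 and 120.2, in Abd-B 181 and 103, and in Acf 193 and 63.9. The signal in these 3 genes was higher in replicate 1, as it was in px (111 and 48.4), E(Pc) (145 and 26.8) and His2Av (135 and 28.7). Neither E(Pc) nor His2Av was in the thresholded set of replicate 2.

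Over the 15 regions with a word the median log2 ratio of replicate 1 to replicate 2 was 0.68, with 12 of 15 higher in replicate 1, against 0.29 over 646 regions without a word, of which 495 were higher in replicate 1. Among windows of at least 40% GC the median was 0.71 for 10 regions with a word and 0.45 for 108 without. At that GC content it was 0.89 for 88 promoter summits with a word and 0.51 for 527 without. Far intron summits there had 0.64 for 14 with a word and 0.36 for 145 without. At any GC content promoter summits had 0.85 for 118 with a word and 0.28 for 1896 without, and far intron summits 0.37 for 23 with a word and 0.30 for 935 without. Below 40% GC the median was 0.68 for 5 of the regions with a word and 0.28 for 538 without. There promoter summits had 0.64 for 30 and 0.22 for 1369, and far intron summits 0.23 for 9 and 0.29 for 790. These ratios are given as a description, chosen after their values were seen, and the parts of GC content and of the libraries in them were not tested.

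Of the other motifs, 2 were rarer at these summits than at promoter summits, and both were also rarer in the tiled windows of these introns than in those of promoters. The DREF element TATCGAT, bound by a factor of replication and growth promoters, was present within 50 bp in 8 regions (1.19%), against 128 promoter summits (6.27%; adjusted p = 1.21e-07) and 7 far intron summits (0.722%; adjusted p = 0.737; Fisher's exact tests), and in 1.22% of tiled windows. The M1BP motif GGTCACAC, a core promoter element of housekeeping genes, was present in 1 region (0.149%), against 39 promoter summits (1.91%; adjusted p = 0.00227) and 2 far intron summits (0.206%; adjusted p = 1; Fisher's exact tests). It was present in 0.133% of tiled windows of the same introns and 0.602% of tiled promoter windows, and DREF in 2.08% of tiled promoter windows. The part of position, which the rule fixed, in these differences was not tested. DREF was the only one of the 3 motifs past the threshold against promoters that stayed past it under all 11 alternatives run, with an exact test's adjusted p of at most 0.0117. The M1BP difference was -0.714 points in the set of replicate 2 alone (exact test, adjusted p = 0.874), and it also missed the threshold at an IDR of 0.001, at a promoter distance of 1000 bp, in windows of 25 bp and above the median height. None of the 12 motifs passed against far intron summits. The CHR word TTTGAA, which MuvB complexes bind, was present in 124 regions (18.4%), against 343 promoter summits (16.8%; adjusted p = 0.725) and 195 far intron summits (20.1%; adjusted p = 0.737; Fisher's exact tests), while 12.9% of tiled windows held it. Those tiled windows were richer in GC (mean 39.2%, against 32.9% at the summits), and its part in the CHR shares was not tested. The remaining 8 motifs passed in no comparison. The homeodomain word TAATTA was present in 73 regions (10.8%), against 219 promoter summits (10.7%) and 85 far intron summits (8.76%). A tract of 8 A was present in 60 regions (8.92%), against 156 promoter summits (7.64%) and 96 far intron summits (9.90%), and the AP-1 word TGANTCA of Jun and Fos in 23 regions (3.42%), against 38 (1.86%) and 29 (2.99%). Those found in under 2% of the 673 were the GATA factors' word AGATAAG (13 regions), the CA repeat CACACACA (12), the Zelda word CAGGTA (9), the GAGA factor's word GAGAGAG (6) and the E-box CACGTG (4).

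**Figure D5:**
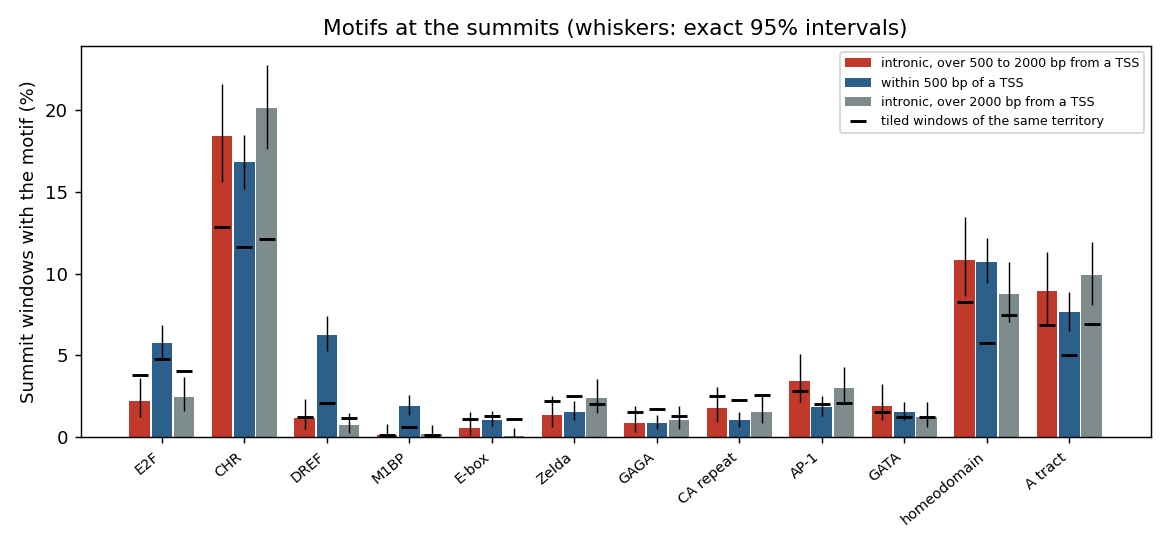
Share of summit windows, 50 bp to each side, with each of 12 motifs (y axis, percent) for intronic summits over 500 to 2000 bp from a TSS (red), promoter summits (blue) and far intron summits (grey), with exact 95% intervals as whiskers and the share of tiled windows as black ticks. Red and blue bars stand apart for the E2F words (2.23% and 5.78%), DREF (1.19% and 6.27%) and M1BP (0.149% and 1.91%).

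The 673 regions lay in 534 host genes. A host need not be the gene of the nearest TSS, which was another gene for 111 of the 673. Of 9005 coding genes with any intron at the required distance, 523 (5.81%) were hosts, and 1866 (20.7%) had a promoter summit. A promoter summit was present in 216 of the 523 hosts (41.3%) and in 1650 of the 8482 other genes (19.5%). Genes with more such intron hosted more often, and the order held at each size: among genes with over 1000 to 2000 bp of it 48 of 282 with a promoter summit were hosts and 86 of 1227 without, and among genes with over 4000 to 8000 bp 37.9% and 20.3%. These shares are a description, since both kinds of summit come from the same set.

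The lists of cell cycle, replication and ribosomal protein genes held no host, although genes outside these lists with such a role did, among them chif. None of 22 DNA replication genes, 21 cyclin and Cdk genes, 9 E2F and dREAM genes or 25 cytosolic ribosomal protein genes with such intron held a summit, against 5.81% of all coding genes. They have little of it: 0.00349 Mb for replication, 0.0153 Mb for cyclins and Cdks, 0.0146 Mb for E2F and dREAM, and 0.00527 Mb for ribosomal proteins. At the density of all coding genes, 55.6 per Mb, these would hold 0.194, 0.853, 0.811 and 0.293 summits. Promoter summits were present at 12 of the 22 replication genes (54.5%) and 13 of the 25 ribosomal protein genes (52%). They were present at 5 of the 21 cyclin and Cdk genes (23.8%) and 2 of the 9 E2F and dREAM genes (22.2%), beside 20.7% of all coding genes. The gene E2f1 itself had 4 regions in its introns, of heights 86.2 to 305, all over 2000 bp from a TSS.

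Between 5.88% and 25% of the genes of each signalling pathway were hosts, beside 5.81% of all coding genes, and these shares were not tested. Of the EGFR, FGF and Ras genes 7 of 28 (25%) were hosts. They held 10 summits (4 in pnt) in 0.0921 Mb, where the density of all coding genes would give 5.12. Highest among them were edl (401; 211 in replicate 1 and 191 in replicate 2), an antagonist of the repressor Yan, and ths (360; 176 and 175), an FGF ligand. Of the BMP and activin genes 4 of 18 (22.2%) were hosts, with 7 summits (3 in shn) where that density would give 2.84. They were the Dpp effector shn (486; 272 and 212), the type II receptor wit (261; 120.3 and 133), the Smad Mad (251) and the type I receptor tkv (84.5). Of the Wnt genes 5 of 21 (23.8%) were hosts, with 5 summits where that density would give 3.63, the kinase sgg highest (110.1; 57.8 and 54.8) and the ligand Wnt4 next (88.4; 47.0 and 45.7). Where both replicates are given here, neither height was 2 times the other. The Wnt4 region lay nearest a TSS of CG31909, and 18864 bp from the nearest one of Wnt4. Of the JAK-STAT genes 2 of 10 (20%) were hosts, Stat92E (173) and its inhibitor Socs36E (107), with 3 summits where that density would give 1.74. The other 4 pathways had 1 host and 1 summit each: neur (245) of 17 Notch genes (5.88%), boi (145) of 11 Hedgehog genes (9.09%), crb (192) of 17 Hippo genes (5.88%) and InR (252) of 16 insulin and TOR genes (6.25%). At the density of all coding genes these 4 would hold 2.61, 1.13, 1.98 and 1.08 summits.

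The other lists are read against the same 5.81% and density. Of 27 Polycomb and trithorax genes 3 (11.1%) were hosts, with 6 summits (3 in Trl) where that density would give 2.33. They were Trl (1114), the Polycomb subunit ph-p (214; 110.2 and 98.0) and the remodeller kis (87.4; 44.2 and 46.8). Of 36 patterning genes 3 (8.33%) were hosts, with 4 summits against 4.26 at that density, all Hox genes: Abd-B (301), Antp (89.7; 58.4 and 35.4) and Ubx (77.3; 40.4 and 37.2), and the Ubx region was in neither replicate's set. Of 22 ecdysone and nuclear receptor genes 4 (18.2%) were hosts, with 6 summits against 6.48, led by the ecdysone receptor EcR (224; 126 and 95.7) and Hr4 (99.8; 47.3 and 48.0). The regions given for kis, Antp, Ubx, EcR and Hr4 lay nearest a TSS of another gene, and 2886 to 29429 bp from the nearest of their own. Neural genes were 4 of 21 (19.0%), with 5 summits against 5.82, and the highest were brat (673; 389 and 286), a translational repressor of neural stem cells, and elav (189; 116 and 64.3), the neuronal RNA-binding protein.

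Axon guidance and adhesion had 4 hosts of 30 (13.3%), with the netrin receptor fra (247) and Ptp10D (181) highest, and 4 summits against 6.13 at the density of all coding genes. Muscle had 2 of 21 (9.52%), the myoblast fusion genes kirre (89.7) and rols (66.8), with 4 summits against 5.50. The regions given for fra and kirre lay nearest a TSS of another gene, CG33752 and CG4116. Cell death had 1 of 9 (11.1%), Diap1 (370), which held 4 summits against 0.724.

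A few genes held several summits. Of the 523 coding hosts 420 held 1 summit, 79 held 2, 16 held 3, 5 held 4 and 3 held 5. CHES-1-like, a forkhead gene, held 5 in 7484 bp of such intron, with heights of 655, 479, 241, 158 and 119.9. All 5 were in the sets of both replicates, and those of heights 655 and 119.9 lay nearest a TSS of lncRNA:CR43287. Tlk, a kinase of chromatin assembly, also held 5, at 292, 255, 100.2, 99.0 and 93.3. CG1677 held 5 between 97.4 and 241, each nearest a TSS of another gene (CBP, brk, unc-119 or CG42780) and not of CG1677. Those in CG1677 were in both replicates' sets, while 3 of the 5 in Tlk were in the set of only 1 replicate.

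The genes with 4 summits were Diap1, CG43658, Fim, pnt and psq. Diap1, the inhibitor of apoptosis, had heights of 370, 118, 104 and 94.9, of which the first 2 were in both replicates' sets. The Diap1 region of height 104 lay nearest a TSS of lncRNA:CR43951. Fim, the actin bundler fimbrin, had 64.0 to 135, and pnt, an ETS activator of EGFR signalling, 73.8 to 121. The regions in pnt of heights 100.2, 78.3 and 73.8 lay nearest a TSS of lncRNA:CR46090, and 10400 to 13432 bp from the nearest one of pnt. In psq, which encodes a BTB-domain DNA-binding protein, the heights were 20.8 to 70.6, none was in the set of replicate 1, and the lowest lay 222 bp from a higher one.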

How the data were processed

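The deposited files list E2f1 ChIP-seq regions of whole embryos in 2 biological replicates (fragments of 200 to 800 bp, dm6 build, per the labels). Per the labels and the deposited readme texts, the authors deposited for each replicate, and for both together, a ranked list and a set thresholded on the global IDR (irreproducible discovery rate); the conservative set of 4439 regions was used, and each replicate's height was that of the overlapping region of its ranked list with the nearest summit. Height is a score deposited by the authors, and no rescaling between libraries is stated. The deposited -log10 columns hold a q-value, going by the narrowPeak layout, and the IDR, capped at 5. By that reading 562 of the 673 regions (83.5%) had a q-value under 0.05, against 85.1% of promoter and 80.5% of far intron summits. Which aligner and peak caller were run, and which versions, is not given in the sources used here; library depth is unknown.

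Summits were written 1-based. Start sites, exons and introns were those of Ensembl BDGP6.54, release 115, without transposable elements, and sequence from the RefSeq assembly, whose lengths hold all regions. Promoter summits lay within 500 bp of a TSS and far intron summits over 2000 bp away in introns. Tests were two-sided permutation tests with 100000 resamples on means, and Fisher's exact tests on shares, with Benjamini-Hochberg adjustment within each family (24 motif and 6 recurrence comparisons) and a threshold of 0.05; regions shared at least 1 bp to overlap. Intervals are exact (Clopper-Pearson, 95%). Motifs were searched on both strands; tiled windows of the same length cover the same introns or promoters. The scripts were tested on simulated data. Scripts ran in Python 3.11.15 with scipy 1.17.1 and statsmodels 0.14.6 for the tests, pandas 2.3.3 and numpy 2.4.6 for the tables, and matplotlib 3.10.9 for plots.

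The regions, the 12 motifs and the 20 gene lists (539 genes, 19 matched through an older symbol, 1 unmatched) were chosen with earlier results of these data known. Named genes are the hosts of the 12 highest regions and of the 8 highest with an E2F word, the hosts in 5 lists, the 2 highest hosts of every other list, genes with 4 or more summits, and the regions nearest the distance limits; Mad and tkv were added after their values were seen. The results of 1 list and 1 of the 12 genes are not reported here. A host is the coding gene with the nearest TSS where several introns overlap. Alternatives were the larger set, each replicate's set alone, an IDR of 0.001, a promoter distance of 1000 bp, TSSs of coding genes only, 1 region per class and gene, other overlap rules, windows of 25 and 100 bp each side, regions above the median height, and the removal of summits within 250 bp of a higher region.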

Additional observations from a re-analysis of the deposited data

How the results depend on the processing

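The 2 replicates were not separate groups. No paired analysis was possible because the series holds 1 group. Differences below are the 673 intronic summits minus the class named, in log2 units for height, bp for width and percentage points otherwise. Of the values recomputed for the comparisons and counts, the DREF and M1BP shares apart, 116 kept their direction and side of the threshold, 25 were no longer past it, 7 newly passed it, 21 reversed and 8 others moved. For DREF and M1BP 34 kept them, 5 were no longer past the threshold and 5 reversed. The cause was not tested. Removing summits within 250 bp of a higher region, an alternative chosen after seeing the data, changed no call and left 647 regions and 531 hosts.

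With each replicate's set alone, the lowest and highest values against promoter summits were -0.19 and -0.018 for height, 2.65 and 9.82 for width, -2.13 and -0.240 for GC content, -4.82 and 4.30 for masking, -8.02 and 1.45 for recurrence in the other set and -2.97 and -1.45 for E2F words. Against far intron summits they were -5.62 and -4.54 for width, -5.72 and -3.18 for masking, -0.979 and 4.54 for recurrence, -0.422 and 1.91 for E2F words, -0.0408 and 0.774 for DREF and -0.0801 and 0.0453 for M1BP. The motif comparisons past the threshold numbered 1 and 2, against 3.

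In the larger set, the difference from promoter summits was -0.048 for height, 1.80 for recurrence in replicate 2 and -2.62 for both, and that from far intron summits 5.72 for both and 1.06 for E2F words. At an IDR of 0.001, 410 regions and 355 hosts were left; against promoter summits GC content differed by -1.01, masking by -0.429, recurrence in replicate 1 by -1.99 and in both by -4.25, and against far intron summits width by -7.33, recurrence by -0.727, -1.89 and -2.71 in replicate 1, replicate 2 and both, and M1BP by 0.244. With a promoter distance of 1000 bp, 357 regions and 304 hosts were left, 1 motif comparison passed, E2F words differed by -2.80 from promoter and 0.047 from far intron summits, and recurrence in replicate 1 by 0.580 from far intron summits. With coding TSSs only, differences from far intron summits were 5.41 for recurrence in replicate 2, 6.15 for both and 0.367 for E2F words.

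With 1 region per class and gene, differences from promoter summits were -0.051 for height, -3.77 for recurrence in replicate 1 and -3.52 for both; from far intron summits they were 0.11 for height, 4.65 for width, 1.43 for GC content, 0.216, -1.68 and -2.19 for recurrence in replicate 1, replicate 2 and both, and 0.187 for M1BP. A reciprocal overlap of 50% gave 3.01 for recurrence in replicate 1 against far intron summits. Windows of 25 bp each side gave 1 motif comparison past the threshold, with E2F words at -1.31 against promoter and 0.306 against far intron summits. Windows of 100 bp gave masking at -0.267 against promoter and -4.62 against far intron summits, and E2F words at 1.00 against the far ones. Above the median height 1 motif comparison passed; differences from promoter summits were -0.594 for GC content, -0.622 and -2.80 for recurrence in replicate 1 and both, and -3.68 for E2F words, and from far intron summits -1.24, -2.76 and -4.24 for recurrence and 0.281 for M1BP.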

Other observations

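Short words not searched for at first were ranked by their share of summit windows over their share of tiled windows in the same introns. Those tiled windows had a mean GC content of 39.2%, against 32.9% at the summits, and its part in the ranking was not tested. Of 1013 words of 6 letters found in at least 20 of the 673 windows, CTGTAC ranked first. It was present in 41 windows (6.09%), against 51 promoter windows (2.50%) and 26 far intron windows (2.68%), and in 2.07% of tiled windows of the same introns. ACAGTG was present in 59 windows (8.77%), against 7.39% of promoter and 7.11% of far intron windows, and ACTGTA in 56 (8.32%), against 5.63% and 6.19%; their tiled shares were 3.73% and 3.70%. The words were picked for these values among many, so no test is given, and which factor, if any, reads them was not tested.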
